A study of Mus musculus with 4 samples.

Results

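The 34 genes described here encode enzymes, transporters and regulators of glycolysis, gluconeogenesis and glycogen metabolism. They were selected by gene symbol from the 27027 entries of a count table of hepatic RNA, and all 34 had an entry. The study asked which genes are expressed while the liver recovers from acute injury by acetaminophen (APAP), an analgesic that kills hepatocytes around the central veins at overdose. Male C57BL/6J mice (strain C57BL/6 in the labels) of 9 to 12 weeks were fasted overnight for 10 h and received either NaCl solution (control) or APAP at 300 mg/kg intraperitoneally. After the injection the mice could eat and drink freely, and livers were taken at 24 h or 48 h. RNA of all mice of a condition was pooled in equal shares, from 6 mice in each control pool and 7 mice in each APAP pool. Each of the 4 pools gave 1 library of MACE, in which each mRNA is sequenced next to its poly(A) tail.

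Glycolysis breaks glucose down to pyruvate, and gluconeogenesis rebuilds glucose from lactate, glycerol and amino acids through mostly the same enzymes. A few irreversible steps have separate enzymes for each direction and decide which way carbon flows. The liver is the main organ that releases glucose into blood, either from glycogen or by gluconeogenesis. Hepatocytes carry their own isoforms for several steps, among them the transporter GLUT2 (Slc2a2), liver pyruvate kinase (Pklr) and liver glycogen phosphorylase (Pygl). Most other cells use isoforms such as GLUT1 (Slc2a1), hexokinases and the muscle-type pyruvate kinase (Pkm). Broadly by this distinction the genes were divided into 14 hepatocyte isoforms, 8 isoforms of other cells and 12 genes that many cells share. The hepatocyte class also holds genes that were not paired with an isoform of other cells, among them Pcx, Slc37a4, Gckr and Mlxipl. Eno3, a muscle form, was placed among the shared genes. The classes are therefore not strict isoform pairs. In the liver lobule, gluconeogenesis is favoured in periportal and glycolysis in pericentral hepatocytes.

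With 1 library per condition there was no replicate check, and APAP and control could not be tested at either time alone. A fit that takes the times as replicates was not run. Values are normalised read counts, the reads divided by the size factor of the library, and of a pair of values the first is that of 24 h. A fold is that of the APAP pool over the control pool of the same time, followed by its 95% counting interval in brackets. The interval covers counting error only and not differences between mice or pools. The libraries held 4859661 to 5698778 reads, and the 34 genes took between 0.431% and 0.515% of them. A gene was called if it was at least 2-fold higher or lower and both libraries together held at least 20 reads. A count of 3 reads or fewer was set to 3.

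Hepatocyte markers were abundant in every library. Their sum, over 8 genes with Alb and Apoa1 among them, was 521036 and 536672 in the controls and 464504 and 500963 after APAP. Of 3 skeletal muscle markers, Ckm and Tnnt3 had 0 reads in every library and Mylpf had 5 to 13. The sum of 12 myeloid markers was 427 and 487 in the controls and 989.7 and 1481 after APAP, none of them at 0 reads. The sum of 10 markers of pericentral hepatocytes was 18001 and 20209 in the controls and 6906 and 5956 after APAP, and that of 8 periportal markers was 26194 and 32649 in the controls and 15244 and 24626 after APAP. The libraries hold bulk RNA, in which fewer cells of a type and less RNA per cell cannot be told apart.

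At 24 h, 32 of the 34 genes passed the minimum of 20 reads. Of these, 9 were at least 2-fold lower (Pklr, Pygl, G6pc, Khk, Mlxipl, Gys2, Slc2a2, Fbp1 and Eno1), while 5.47% of all 12196 genes tested were. The 5 genes at least 2-fold higher were Pck1, Pfkfb3, Slc2a1, Pkm and Ldha, against 6.37% of all genes. At 48 h, 33 genes passed and 8 were lower (Pklr, Khk, Pygl, G6pc, Slc2a2, Mlxipl, Pfkfb1 and Fbp1), against 5.58% of 12218 genes. The 3 higher genes at 48 h were Pkm, Hk2 and Pck1, against 6.05% of all genes. The median log2 fold of the genes that passed was -0.43 at 24 h and -0.47 at 48 h, while that of all genes tested was 0.01 and -0.01. Eno3 and Ldhb did not pass at 24 h, and Ldhb did not pass at 48 h.

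The scaling of the libraries affected these counts. When the libraries were scaled by their totals, the median log2 fold of all genes was 0.20 at 24 h and 0.25 at 48 h. The calls were then 5 higher and 8 lower at 24 h, and 3 higher and 4 lower at 48 h. The folds that no longer reached the threshold were those of Eno1 at 24 h (0.563) and of Slc2a2 (0.513), Pfkfb1 (0.565), Fbp1 (0.586) and Mlxipl (0.552) at 48 h. Over all genes, the calls were 777 higher and 667 lower at 24 h with size factors and 1143 and 422 with library totals. At 48 h they were 739 and 682 with size factors and 1244 and 392 with library totals.

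**Figure D1:**
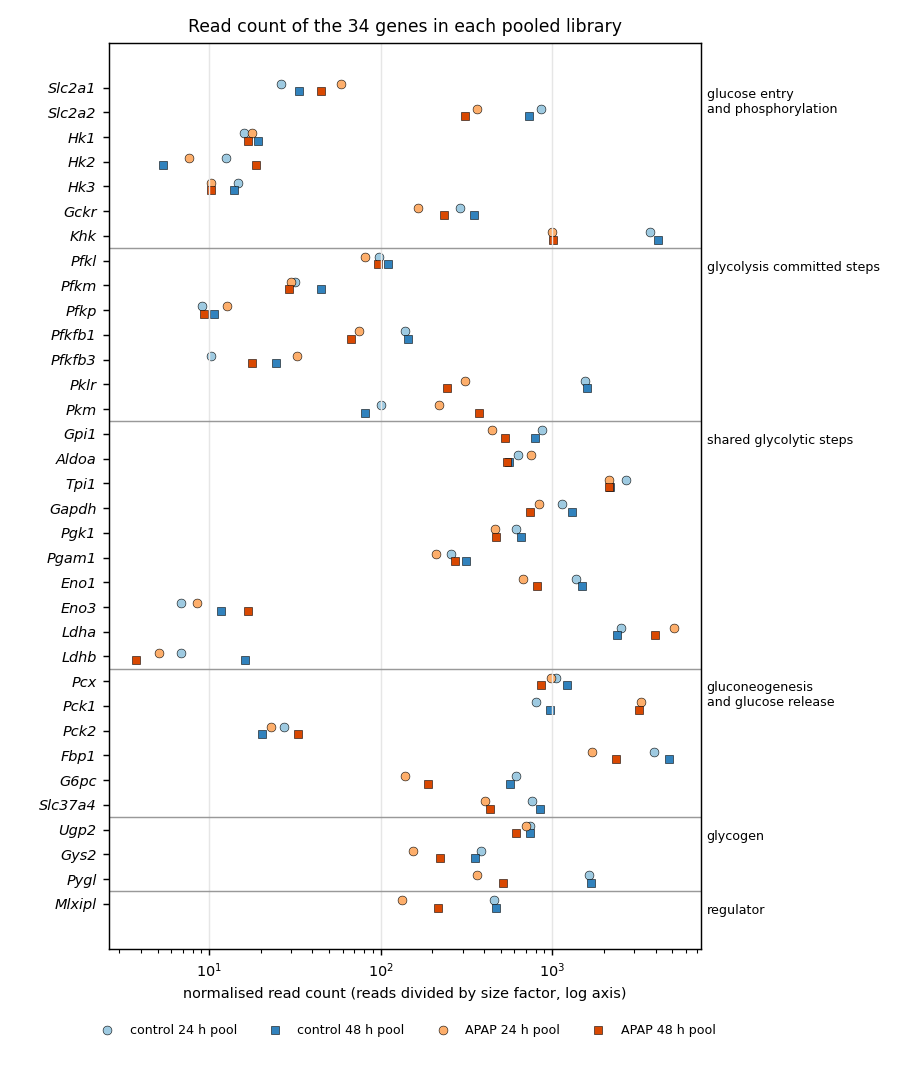
Normalised read count (log axis) of each of the 34 genes in the 4 pooled libraries, ordered by role. Circles are 24 h and squares 48 h, blue the controls and orange APAP. For Pklr, Khk, Pygl, G6pc and Fbp1 both APAP pools lie to the left of both controls, and for Pck1, Ldha and Pkm to the right.

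With size factors and the 2-fold rule, most hepatocyte isoforms were lower than their controls at each time, while most isoforms of other cells were not called. Of all genes tested, 5.47% were lower and 6.37% higher at 24 h, and 5.58% and 6.05% at 48 h. At 48 h, only 4 of all 34 genes were lower with library totals and 7 against the control of the other time. Under these settings it was thus not most hepatocyte isoforms. All 14 hepatocyte isoforms passed the minimum of 20 reads. At each time, 8 of them were at least 2-fold lower and 1, Pck1, was at least 2-fold higher. Their median log2 fold was -1.22 at 24 h and -1.06 at 48 h. Of the 8 isoforms of other cells, 3 were at least 2-fold higher at 24 h (Pfkfb3, Slc2a1 and Pkm) and 2 at 48 h (Pkm and Hk2), and 0 were lower. Their median log2 fold was 0.30 and -0.18. Among the genes shared by many cells, 10 of 12 passed at 24 h and 11 at 48 h, with medians of -0.30 and -0.21.

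The reads behind these classes differed. The normalised counts of the hepatocyte isoforms summed to 16254 and 17975 in the controls and 9165 and 9943 after APAP. Those of the isoforms of other cells summed to 221 and 234 in the controls and 388 and 523 after APAP. Pkm alone held 100.04 and 81.5 of these in the controls and 219 and 376 after APAP. Of the 8 genes of this class, 3 had intervals above 1 at 24 h and 2 at 48 h, so the sum does not describe the class as a whole. The hepatocyte marker sum after APAP was 0.892 of the control at 24 h and 0.933 at 48 h. Its 8 genes were not alike at 24 h, when the intervals of 2 lay above 1 and those of 6 below. Fgb was then 2.7-fold higher [2.65, 2.76], the only call among them, and Ttr had a fold of 0.561 [0.554, 0.568]. At 48 h, 0 were called. The pericentral marker sum was 0.384 and 0.295 of the control. Its part in the lower counts of the hepatocyte isoforms was not tested. Scaled to the hepatocyte markers, a choice made after seeing the data, the median log2 fold of the hepatocyte isoforms was -1.05 at 24 h and -0.96 at 48 h. With this scaling, 6 of all 34 genes were at least 2-fold lower at 48 h.

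**Figure D2:**
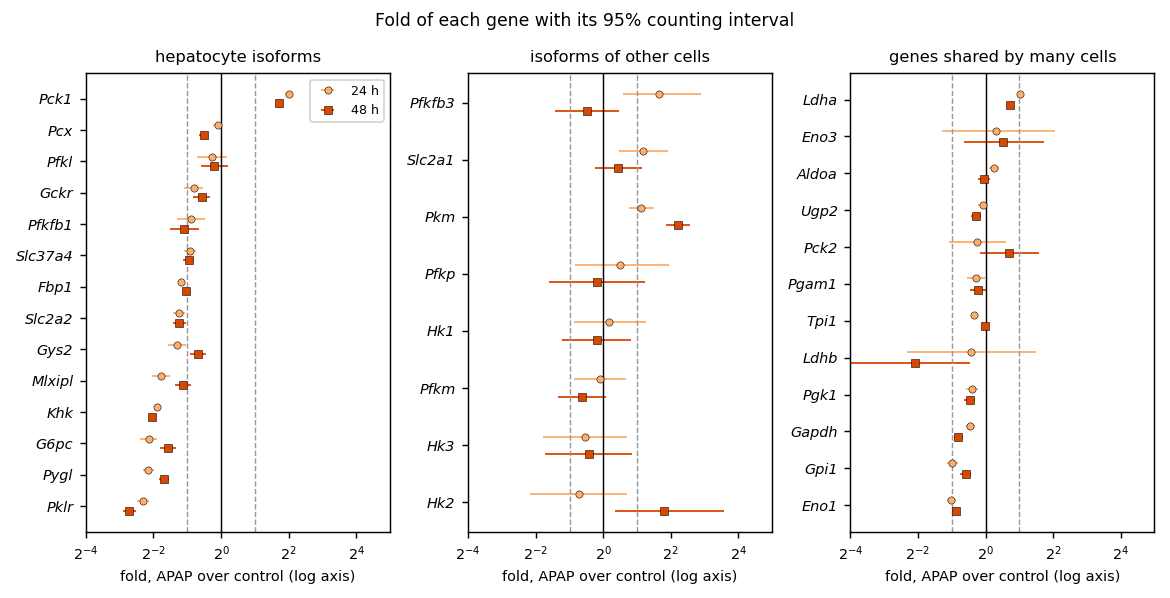
Fold of the APAP pool over the control pool of the same time (log axis) at 24 h (circles) and 48 h (squares), in 3 panels by isoform class. Bars are 95% counting intervals, and dashed lines mark folds of 0.5 and 2. With size factors, all hepatocyte isoforms except Pck1 have folds under 1 at both times, whereas the isoforms of other cells spread to both sides, with wide intervals for Hk1, Hk2, Hk3 and Pfkp.

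Of the 32 genes tested at both times, 15 had intervals below 1 at both times and 3 had intervals above 1. The shares of all genes with such intervals were not computed. The 3 genes with intervals above 1 at both times were Pck1, Ldha and Pkm. Their promoter windows are shown because these genes were on the other side of the controls from the genes that were lower. A window holds the 250 bases before and the 50 after a start site in RefSeq (GRCm38.p6). Capitals mark 3 motifs on either strand, the E-box CACGTG that ChREBP and other factors can bind, ACGTG, the core of a hypoxia response element, and ACGTCA, a partial cyclic AMP response element. An E-box holds the core on both strands. All windows below are given 5′ to 3′ on the plus strand.
Pck1 chr2:173152823-173153122: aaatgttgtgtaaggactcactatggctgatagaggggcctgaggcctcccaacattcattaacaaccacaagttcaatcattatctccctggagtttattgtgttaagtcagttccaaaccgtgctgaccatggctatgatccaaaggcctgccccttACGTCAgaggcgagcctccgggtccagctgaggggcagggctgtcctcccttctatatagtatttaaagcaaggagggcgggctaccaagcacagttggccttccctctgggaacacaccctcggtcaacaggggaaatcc
Ldha chr7:46845554-46845853: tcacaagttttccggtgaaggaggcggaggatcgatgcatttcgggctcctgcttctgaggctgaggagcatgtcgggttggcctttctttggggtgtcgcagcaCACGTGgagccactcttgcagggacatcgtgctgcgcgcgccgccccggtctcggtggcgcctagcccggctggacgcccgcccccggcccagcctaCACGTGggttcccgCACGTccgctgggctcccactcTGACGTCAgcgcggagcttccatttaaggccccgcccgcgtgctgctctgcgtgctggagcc
Pkm chr9:59656326-59656625: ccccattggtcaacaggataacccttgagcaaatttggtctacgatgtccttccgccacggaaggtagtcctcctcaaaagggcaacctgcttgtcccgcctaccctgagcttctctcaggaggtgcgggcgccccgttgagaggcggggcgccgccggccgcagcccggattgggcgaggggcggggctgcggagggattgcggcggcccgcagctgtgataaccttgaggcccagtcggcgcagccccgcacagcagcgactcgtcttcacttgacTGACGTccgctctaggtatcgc
Pkm chr9:59656977-59657276: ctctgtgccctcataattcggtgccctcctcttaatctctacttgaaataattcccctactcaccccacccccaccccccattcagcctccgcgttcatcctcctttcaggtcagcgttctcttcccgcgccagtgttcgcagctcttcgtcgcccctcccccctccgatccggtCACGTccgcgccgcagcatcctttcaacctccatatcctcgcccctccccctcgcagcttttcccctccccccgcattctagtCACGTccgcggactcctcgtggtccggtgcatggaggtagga
The Pck1 window held 1 match to ACGTCA and none to the other motifs. The Ldha window held 2 E-boxes, 5 cores and 2 matches to ACGTCA, which are the strands of a single palindrome. The second Ldha window in RefSeq held none of the 3 motifs. Of the Pkm windows, the first held 1 match to ACGTCA and the second 2 cores.

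Windows were found for 33 of the 34 genes, all but Gys2, with 53 windows in all. The E-box was in 11.3% of them and in 7.15% of all 32851 mouse windows in RefSeq. The core ACGTG was in 37.7% of the windows of the 33 genes and in 19.6% of all windows, and ACGTCA was in 13.2% and 7.51%. Windows of the same gene can overlap, as for Aldoa and Slc37a4, so the same site can count more than once. Genes on either side of the controls held each motif. The E-box was found in Khk and Mlxipl, which were lower after APAP, as well as in Ldha. The windows of Pklr and G6pc held no exact match to any of the 3. Imperfect E-boxes were not searched for, so the lack of a match does not show that a ChREBP site is absent. A match is a description of the letters in the window and was not tested for binding.

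The genes of glucose entry were lower after APAP where they are specific to hepatocytes. Slc2a2 encodes GLUT2, the transporter that lets glucose pass hepatocyte membranes in both directions. Its normalised counts were 861 and 730.2 in the controls and 364 and 311 after APAP. Slc2a2 was 2.37-fold lower [2.1, 2.67] at 24 h and 2.35-fold lower [2.05, 2.68] at 48 h, and both APAP pools were below both controls. Gckr encodes a nuclear regulatory protein of glucose phosphorylation. Its level was 289 and 349.5 in the controls and 164 and 234 after APAP, or 1.76-fold lower [1.45, 2.13] and 1.49-fold lower [1.26, 1.77].

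Khk, ketohexokinase, phosphorylates fructose, which then bypasses the regulated step of glycolysis. Its counts were 3711 and 4154 in the controls and 1002 and 1014 after APAP, 3.7-fold lower [3.46, 3.96] at 24 h and 4.1-fold lower [3.83, 4.39] at 48 h. The APAP pools were close to each other and far below both controls.

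Slc2a1 encodes GLUT1, the glucose transporter of most cells that are not hepatocytes. It was counted at 26.1 and 33.2 in the controls and 58.8 and 45.0 after APAP, 2.25-fold higher [1.38, 3.78] at 24 h. It was 1.35-fold higher at 48 h, with an interval that held 1 [0.844, 2.2]. Both APAP pools were above both controls. Against the control of the other time, its fold at 24 h was 1.77, under the threshold.

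The hexokinases of other cells had few reads. Hk2, the inducible form of muscle and proliferating cells, had 11 and 5 reads in the controls and 9 and 20 after APAP. It was 3.5-fold higher [1.27, 11.9] at 48 h and had a fold of 0.613 [0.225, 1.63] at 24 h. The high value at 48 h rests on a control of 5 reads, and against the control of 24 h the fold was 1.5. Hk1, the widely expressed form, had folds of 1.12 [0.545, 2.39] and 0.874 [0.429, 1.78]. Hk3, a form of myeloid cells, had folds of 0.692 [0.288, 1.64] and 0.740 [0.300, 1.79]. A difference in Hk1 or Hk3 was not detectable at this depth. The summed myeloid markers were 2.32-fold and 3.04-fold higher in the same libraries.

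Pyruvate kinase makes pyruvate and ATP in the last step of glycolysis. The liver gene Pklr (chr3:89136142-89146784, plus strand, GRCm38) and the gene of other cells, Pkm (chr9:59656368-59679375, plus strand), differed from the controls in opposite directions. Pklr was counted at 1543 and 1592 in the controls and 311 and 243 after APAP, 4.96-fold lower [4.42, 5.59] at 24 h and 6.56-fold lower [5.74, 7.51] at 48 h. Both APAP pools were below both controls, and no other of the 34 genes had a lower fold at either time. The 3′ end of Pklr overlaps Hcn3 on the other strand, and whether strand was used in the counting is not given in the sources used here.

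Pkm was counted at 100.04 and 81.5 in the controls and 219 and 376 after APAP. At 24 h Pkm was 2.19-fold higher [1.71, 2.82], and at 48 h 4.61-fold higher [3.6, 5.98]. Both APAP pools were above both controls, and the pool of 48 h was the highest. The splice forms PKM1 and PKM2 share their 3′ end and were counted together. Among the 12 myeloid markers, 6 of the 10 that passed the minimum were called higher at 24 h and 9 of 11 at 48 h. Lyz2, for example, was 3.42-fold and 5.39-fold higher. Csf1r and Adgre1 were not called at either time. Csf1r had folds of 0.995 [0.791, 1.25] and 0.936 [0.762, 1.15], and Adgre1 of 0.793 [0.531, 1.19] and 1.14 [0.738, 1.76]. The summed stellate cell markers were 1.26-fold and 2.03-fold higher with 1 of 7 called higher at 24 h and 4 at 48 h. Those of cholangiocytes were 2.78-fold and 1.69-fold higher in sum, with 1 of the 3 that passed called higher at each time (Sox9, then Spp1). Krt19, another cholangiocyte marker, had folds of 0.999 [0.304, 3.49] and 0.538 [0.193, 1.4]. Most markers of Kupffer and endothelial cells were not called. At each time, 1 of 5 Kupffer markers (Marco) and 1 of 6 endothelial markers (Lyve1) were called higher. Clec4f, another Kupffer marker, had folds of 0.534 [0.441, 0.645] and 0.985 [0.831, 1.17]. The part of these cell types in the Pkm counts was not tested.

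The kinases at the committed step showed small or uncertain differences. Pfkl, the liver-type phosphofructokinase, had folds of 0.828 [0.612, 1.12] and 0.874 [0.659, 1.16]. Pfkm and Pfkp, the muscle and platelet types, had folds of 0.937 [0.554, 1.6] and 1.4 [0.559, 3.83] at 24 h and of 0.645 [0.392, 1.05] and 0.874 [0.327, 2.34] at 48 h. All 6 intervals held 1. The entry of Pfkm also holds reads that overlap Gm26513, and Pfkp overlaps Pitrm1 on the other strand.

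The bifunctional enzymes that make and degrade fructose 2,6-bisphosphate control that step. Pfkfb1, the liver form, was counted at 139 and 144 in the controls and 75.0 and 67.5 after APAP. It was 1.85-fold lower [1.4, 2.46] at 24 h and 2.13-fold lower [1.59, 2.87] at 48 h, and both APAP pools were below both controls. Pfkfb3, an inducible form of other cells, had 9 and 23 reads in the controls and 38 and 19 after APAP. It was 3.16-fold higher [1.5, 7.44] at 24 h, and its fold at 48 h was 0.722 [0.372, 1.39]. Its control pools differed 2.41-fold [1.07, 5.92], and against the other control the fold at 24 h was 1.31.

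With size factors, most enzymes that serve both directions had folds under 1 and within 2-fold, though several intervals at 48 h held 1. Gpi1, glucose-6-phosphate isomerase, was 1.97-fold lower [1.76, 2.21] at 24 h and 1.5-fold lower [1.34, 1.68] at 48 h. Pgk1, phosphoglycerate kinase, was 1.32-fold lower [1.17, 1.5] and 1.39-fold lower [1.23, 1.56]. Tpi1, triose phosphate isomerase, had folds of 0.796 [0.753, 0.842] and 0.983 [0.925, 1.04], and Pgam1, phosphoglycerate mutase, of 0.826 [0.687, 0.994] and 0.862 [0.730, 1.02]. Aldoa, the aldolase of most cells, had folds of 1.19 [1.06, 1.32] and 0.968 [0.859, 1.09]. With library totals, the folds of Tpi1, Pgam1 and Aldoa at 48 h were 1.18, 1.04 and 1.16. Tpi1 overlaps Spsb2 on the other strand.

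Ldha encodes the lactate dehydrogenase subunit that predominates in liver and interconverts pyruvate and lactate. It was counted at 2519 and 2389.9 in the controls and 5108 and 3966 after APAP. At 24 h it was 2.03-fold higher [1.93, 2.13], at 48 h 1.66-fold higher [1.58, 1.75], and both APAP pools were above both controls. Ldhb, the heart-type subunit, had 6 and 15 reads in the controls and 6 and 4 after APAP, too few to be tested for a call. Eno3, the muscle enolase, had 6 and 11 reads in the controls and 10 and 18 after APAP, with a fold of 1.43 [0.640, 3.35] at 48 h.

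Gapdh and Eno1 share their 3′ ends with other genes, so that their counts are uncertain. Gapdh, glyceraldehyde-3-phosphate dehydrogenase, was counted at 1143 and 1294 in the controls and 838 and 739 after APAP, or 1.36-fold lower [1.25, 1.49] at 24 h and 1.75-fold lower [1.6, 1.92] at 48 h. The study normalised its real-time PCR to this mRNA. The last 300 bases of Gapdh match 130 other genes at 95% identity or more over at least 100 bases, of which 104 have an entry and 101 of these are annotated as pseudogenes. These 104 entries held 3423 and 4090 reads in the controls and 3043 and 2658 after APAP, more than the 1005 and 1207 reads in the controls and 984 and 788 after APAP of Gapdh itself. The fold of all 105 entries together was 0.681 [0.653, 0.711] at 24 h and 0.569 [0.545, 0.594] at 48 h. Gapdh also overlaps Iffo1 on the other strand.

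Eno1, the widely expressed enolase, was counted at 1365 and 1481 in the controls and 675 and 809 after APAP. It was 2.02-fold lower [1.85, 2.21] at 24 h and 1.83-fold lower [1.68, 1.99] at 48 h. Its fold at 24 h lies at the threshold and was 0.503 with TMM. Its last 300 bases are identical to those of Eno1b and Gm4735 and match Gm5855 and Gm8483. These 4 entries held 1312 and 1601 reads in the controls and 985 and 889 after APAP. With them added, the fold was 0.530 [0.499, 0.563] at 24 h, which is within 2-fold, and 0.514 [0.484, 0.545] at 48 h. The reads of the look-alike entries were below the controls at both times, as were those of Gapdh and Eno1 themselves. For 14 reference genes that many cells express, 0 were called in either direction, and their median log2 fold was 0.11 and 0.05.

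**Figure D3:**
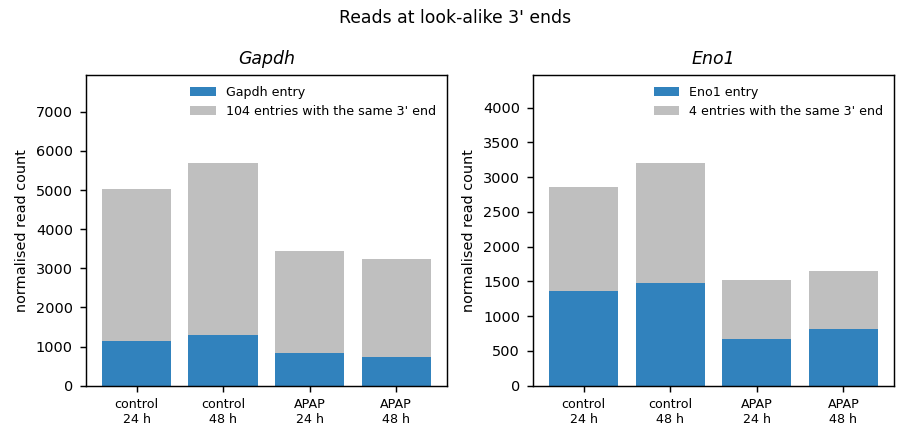
Normalised read count (linear axis) in the 4 libraries for Gapdh and Eno1, with the own entry in blue and the summed entries that share its 3′ end stacked in grey. The own entry holds 22.7% to 24.4% of the Gapdh stack and 44.6% to 49.3% of the Eno1 stack, and both stacks are lower after APAP.

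The genes of gluconeogenesis were not all on one side of the controls. Pck1 (chr2:173153048-173159273, plus strand, GRCm38) encodes cytosolic phosphoenolpyruvate carboxykinase, which commits oxaloacetate to gluconeogenesis. Its counts were 807 and 969 in the controls and 3282 and 3204 after APAP. At 24 h it was 4.07-fold higher [3.75, 4.41], at 48 h 3.31-fold higher [3.07, 3.56], and both APAP pools were far above both controls. Its fold was the highest of the 34 genes at 24 h. With size factors it was the only hepatocyte isoform above its control, while with library totals Pcx at 24 h (1.06) and Pfkl at 48 h (1.05) also had folds above 1, as had Pcx at 24 h (1.05) scaled to the hepatocyte markers.

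Fbp1 and G6pc act after Pck1 on the same route. Fbp1, fructose-1,6-bisphosphatase, was counted at 3912 and 4795 in the controls and 1705 and 2336 after APAP, 2.29-fold lower [2.17, 2.43] at 24 h and 2.05-fold lower [1.95, 2.16] at 48 h. G6pc (chr11:101367561-101377903, plus strand) encodes the catalytic subunit of glucose-6-phosphatase, which frees glucose for export. The counts of G6pc were 610.5 and 565 in the controls and 139 and 189 after APAP. It was 4.4-fold lower [3.68, 5.27] at 24 h and 2.98-fold lower [2.53, 3.53] at 48 h. Against the control of 24 h, the fold of Fbp1 at 48 h was 0.597, under the threshold. For both genes, both APAP pools were below both controls. The intervals of their folds did not overlap with that of Pck1 at either time.

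Slc37a4 encodes the transporter that carries glucose 6-phosphate to that enzyme in the endoplasmic reticulum. Counts of Slc37a4 were 765 and 844 in the controls and 407 and 436 after APAP, 1.88-fold lower [1.67, 2.12] and 1.94-fold lower [1.72, 2.18]. Pcx, pyruvate carboxylase, makes the oxaloacetate that PEPCK uses. It had folds of 0.935 [0.857, 1.02] at 24 h and 0.701 [0.642, 0.765] at 48 h. The 24 h value was 1.06 with library totals. Pck2, the mitochondrial carboxykinase, had 24 and 19 reads in the controls and 27 and 35 after APAP, with folds of 0.843 [0.468, 1.53] and 1.61 [0.897, 2.98]. A stretch of its 3′ end matches 9 other counted genes over 107 to 185 bases. The periportal marker sum, for the zone in which gluconeogenesis is favoured, was 0.582 of the control at 24 h and 0.754 at 48 h. Of its 8 genes, 4 were at least 2-fold lower at 24 h and 1, Cyp2f2, at 48 h, while Sds, Arg1 and Hal had folds of 1.68 [1.53, 1.85], 1.4 [1.34, 1.46] and 1.29 [1.19, 1.39] at 48 h. The part of these zone markers in the counts was not tested.

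Glycogen genes specific to hepatocytes were lower at both times. Pygl, liver glycogen phosphorylase, releases glucose units from glycogen. It was counted at 1628 and 1677 in the controls and 365 and 519 after APAP, 4.46-fold lower [4.0, 4.97] at 24 h and 3.23-fold lower [2.93, 3.56] at 48 h. Gys2, liver glycogen synthase, elongates the polymer. Its counts were 384 and 354 in the controls and 155 and 220.3 after APAP, 2.48-fold lower [2.06, 2.98] and 1.61-fold lower [1.35, 1.91]. Genes of breakdown and synthesis were thus both below the controls, with no overlap between APAP and control pools. Ugp2, which makes the UDP-glucose that glycogen synthase uses, had folds of 0.948 [0.854, 1.05] and 0.820 [0.736, 0.914], and of 1.08 at 24 h with library totals.

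Mlxipl encodes ChREBP, a transcription factor that responds to glucose and drives genes of glycolysis and lipid synthesis, with Pklr as its classical target. It was counted at 458 and 467 in the controls and 134 and 215 after APAP. Mlxipl was 3.43-fold lower [2.84, 4.15] at 24 h and 2.18-fold lower [1.85, 2.57] at 48 h, and both APAP pools were below both controls.

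Reads were also compared within pairs of genes for the same step, which does not depend on the scaling of the libraries. Odds ratios below are those of the APAP pool over the control pool of the same time, with exact counting intervals. Pkm held the following shares of the reads of Pklr and Pkm, in the order control 24 h, control 48 h, APAP 24 h and APAP 48 h: 6.09% [4.91, 7.45], 4.87% [3.85, 6.06], 41.3% [37.4, 45.3] and 60.8% [56.9, 64.5]. In the APAP pool of 48 h, most reads of the pair came from Pkm. The odds ratio of Pkm over Pklr was 10.9 [8.24, 14.4] at 24 h and 30.3 [22.7, 40.5] at 48 h.

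For the glucose transporters, the share of Slc2a1 beside Slc2a2 was 2.95% and 4.35% in the controls and 13.9% and 12.6% after APAP, with odds ratios of 5.32 [3.22, 9.06] and 3.18 [1.94, 5.26]. With the control of the other time these odds ratios were 3.55 and 4.76, so their order depended on the control. The share of Pygb, the brain-type phosphorylase, beside Pygl was 1.17% and 1.32% in the controls and 6.54% and 5.46% after APAP (odds ratios 5.89 [3.11, 11.5] and 4.3 [2.38, 7.91]). For Gys1, the synthase of muscle and other tissues, beside Gys2 it was 4.25% and 4.62% in the controls and 9.45% and 9.27% after APAP (odds ratios 2.35 [1.1, 5.1] and 2.11 [1.05, 4.34]). In these pairs the hepatocyte gene was lower, while the folds of Gys1 and Pygb had intervals that held 1.

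Pfkfb3 beside Pfkfb1 had odds ratios of 5.85 [2.6, 14.4] and 1.54 [0.737, 3.17], of which the second held 1. Against the control of the other time they were 2.52 and 3.58, so which time had the larger one depended on the control. The phosphofructokinases showed no detectable shift, as Pfkm and Pfkp over Pfkl had odds ratios of 1.26 [0.726, 2.19] and 0.788 [0.467, 1.33].

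The remaining pairs had 1 gene with almost all reads. Pck1 over Pck2 had odds ratios of 4.82 [2.65, 8.74] and 2.05 [1.1, 3.71], and Ldha over Ldhb of 2.71 [0.723, 10.1] and 7.12 [2.26, 29.5]. For Eno3 over Eno1 they were 2.52 [0.827, 8.48] and 2.62 [1.16, 6.16], with Eno1 uncertain as described. The Ldha pair rests on 6 and 15 reads of Ldhb in the controls and 6 and 4 after APAP. Turned over, Ldhb over Ldha was 0.370 and 0.141, but 0.149 and 0.349 with the control of the other time. Pck2 over Pck1 was 0.207 and 0.487, but 0.333 and 0.303 with that control. In both pairs the order of the times thus depended on the control.

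**Figure D4:**
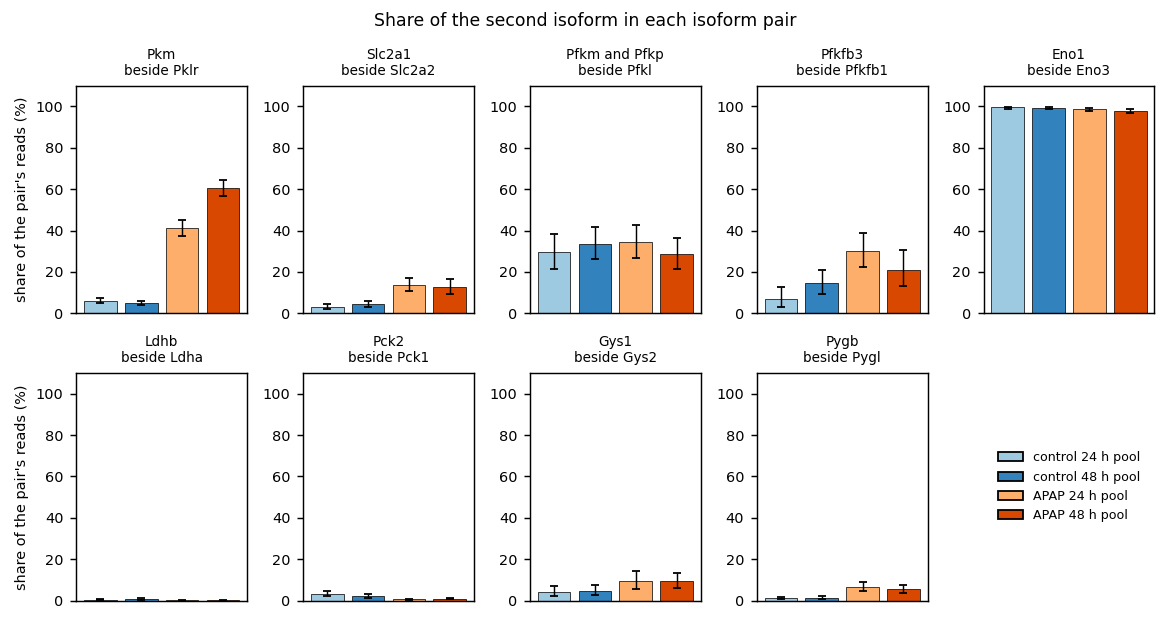
Share of the reads of an isoform pair (percent, linear axis) that came from the second gene or genes, in the 4 libraries, for 9 pairs. Bars are the share in 1 library and whiskers its exact 95% counting interval. The share of Pkm is 6.09% and 4.87% in the controls and 41.3% and 60.8% after APAP, and the shares of Slc2a1 and of Pygb are higher in both APAP pools than in both controls.

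Both times gave the same call for 9 of the 32 genes tested at 24 h and 48 h. Pklr, Khk, Pygl, G6pc, Slc2a2, Mlxipl and Fbp1 were at least 2-fold lower at both, as were 2.28% of the 11748 genes tested at both. Pck1 and Pkm were at least 2-fold higher at both, as were 1.97% of these genes. The controls are separate pools, so the times share no library.

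Without APAP, the control pools differed by at least 2-fold in 2 of 31 genes tested, against 2.42% of 11715 genes higher and 1.97% lower at 48 h. These were Pfkfb3 (2.41-fold higher at 48 h) and Ldhb (2.36-fold higher, with an interval of [0.864, 7.42]). None of the hepatocyte isoforms did.

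A further 110 genes of glucose metabolism outside the 34 were listed, and 93 passed the minimum at 24 h and 91 at 48 h. Of these, 6 were higher and 11 lower at 24 h, and 2 higher and 7 lower at 48 h. Of all genes tested, 6.37% were higher and 5.47% lower at 24 h, and 6.05% and 5.58% at 48 h, so the shares of higher genes were near to or under those of all genes. Their median log2 fold was -0.21 and -0.31. Called in the same direction at both times were Slc2a5, Tkfc, Aldoc, Pdk1 and Pfkfb2. The fructose transporter gene Slc2a5 had 43 and 40 reads in the controls and 4 and 9 after APAP, 14.3-fold lower [5.21, 55.0] and 5.08-fold lower [2.43, 11.9]. Tkfc, triokinase, which phosphorylates glyceraldehyde in fructose breakdown, was 2.89-fold lower [2.7, 3.09] and 2.86-fold lower [2.65, 3.09].

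Aldoc, an aldolase mainly known from brain, was 4.51-fold lower [2.95, 7.08] at 24 h and 4.36-fold lower [2.93, 6.65] at 48 h. Pdk1, a kinase that inhibits pyruvate dehydrogenase, was 5.21-fold lower [3.95, 6.97] and 3.14-fold lower [2.38, 4.18]. Pfkfb2, another form of the bifunctional enzyme, was the only one of these genes higher at both times, at 2.12-fold higher [1.19, 3.92] and 2.02-fold higher [1.1, 3.89].

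The other calls among these genes are named here after their values were seen. Of 22 regulators of glucose production that passed, Cebpb and Irs2 were higher and Srebf1 lower at 24 h, and 0 were called at 48 h. Cebpb, a transcription factor that acts on Pck1, was counted at 456 and 378 in the controls and 938 and 518 after APAP, 2.06-fold higher [1.83, 2.31] and 1.37-fold higher [1.2, 1.57]. Srebf1, a lipogenic factor that insulin induces, was counted at 473 and 484 in the controls and 185 and 331 after APAP, 2.56-fold lower [2.17, 3.03] and 1.46-fold lower [1.27, 1.68]. Against the control of the other time the fold of Irs2 was 1.21, under the threshold. The coactivator gene Ppargc1a had folds of 1.03 [0.517, 2.1] and 0.909 [0.505, 1.64], Foxo1 of 1.23 [0.983, 1.53] and 1.42 [1.12, 1.82], and Hnf4a of 1.17 [1.06, 1.28] and 0.942 [0.857, 1.04].

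Of the hypoxia response genes, 1 of 10 was higher at 24 h (Adm) and 1 of 9 lower at 48 h (P4ha2). Pyruvate entry into mitochondria had 3 of 11 lower at 24 h (Pdk1, Pdk4 and Dlat) and 1 of 10 at 48 h (Pdk1). The pentose phosphate and galactose genes had 1 of 10 lower at 24 h (Rpia) and 0 called at 48 h. Of 10 further gluconeogenic genes, Got1 was lower at 24 h and Gpd2 at 48 h. Of 17 further glycogen genes, Pgm1 was higher at 24 h and Gyg at 48 h. Ppp1r3b, which targets a phosphatase to glycogen and favours its synthesis, was 3.14-fold lower [2.51, 3.95] at 24 h and 1.9-fold lower [1.49, 2.41] at 48 h. In glycolysis and glucose uptake, Galm was lower at 24 h, and Slc2a3 was higher at 24 h and lower at 48 h. Several of these calls were lost against the control of the other time, where the folds were 0.574 for Dlat, 0.883 for Pdk4 and 1.99 for Adm at 24 h, and 0.738 for P4ha2, 1.25 for Gyg and 1.8 for Pfkfb2 at 48 h. With library totals those of Galm (0.501), Got1 (0.543) and Dlat (0.525) at 24 h and of Slc2a3 (0.547), Gpd2 (0.567) and P4ha2 (0.596) at 48 h were lost.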

How the data were processed

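Per the labels and the study's methods, hepatic RNA was isolated by trizol, digested with DNase, pooled and prepared with the MACE-kit v.2. The authors removed duplicates by molecular identifiers, cut low-quality bases (cutadapt) and poly(A), mapped to mm10 (GRCm38) and deposited read counts per gene from HTSeq, without normalization. Versions and the mapper are not given in the sources used here. The deposited table also holds RPM values, log2 ratios, p-values and FDR values by the authors, which were not used.

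Libraries were scaled in R 4.3.3 by the median-of-ratios size factors of DESeq2 1.42.0. The TMM factors of edgeR 4.0.16 and library totals served as alternatives. The size factors were 0.880 and 0.933 for the controls and 1.17 and 1.07 for the APAP pools. With 1 library per group no test was run. Folds used a floor of 3 reads, medians a pseudocount of 1. Intervals are exact (Clopper-Pearson for folds and shares, conditional for odds ratios and ratios of folds) at 95%, computed with Python 3.11.15 and scipy 1.17.1, and were tested on simulated data. MACE counts ends, so counts were not divided by length. Positions are from GENCODE M21, to which 26946 entries matched, and 3′ ends were compared with blastn 2.17.0. All 34 genes are named, as well as isoform partners and the listed pathway genes called the same way at both times. Some genes and isoform pairs are not reported here. The genes and lists were chosen with earlier results of these data known.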

Additional observations from a re-analysis of the deposited data

Results flagged for a closer look

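The folds at 24 h and 48 h were compared for the 34 genes and for 91 further pathway genes that passed the minimum of reads at both times. Ratios are those of the fold at 48 h over the fold at 24 h, with exact counting intervals. They compare 4 libraries, so a difference between the times was not tested over mice. A ratio was noted at 2 or more, or 0.5 or less, with an interval without 1, or where both folds had intervals on opposite sides of 1. Among the 34 genes, the ratio was 2.11 [1.47, 3.02] for Pkm, 5.71 [1.3, 26.8] for Hk2 and 0.228 [0.0782, 0.644] for Pfkfb3. Both of the latter rest on few reads, and the control pools of Pfkfb3 differed 2.41-fold.

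Among the further genes, Got1, the cytosolic aspartate aminotransferase, was 2.1-fold lower [1.85, 2.38] at 24 h and 1.17-fold higher [1.06, 1.29] at 48 h, with a ratio of 2.45 [2.08, 2.88]. Slc2a3, the transporter GLUT3, was 2.12-fold higher [1.39, 3.34] and then 2.2-fold lower [1.08, 4.68], a ratio of 0.214 [0.0894, 0.504]. The ratio was 0.576 [0.399, 0.832] for Stbd1 and 0.687 [0.580, 0.813] for H6pd, both above the control at 24 h and below it at 48 h. Gyg, glycogenin, had 2.94 [1.4, 6.19], Adpgk 2.55 [1.1, 5.93] and Irs2, an adaptor of the insulin receptor, 0.350 [0.165, 0.735]. The control pools of Irs2 differed 1.79-fold [1.02, 3.25].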

How the results depend on the processing

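The numbers of genes called moved by over 1.5 times under these settings. At 24 h, 3 genes in place of 5 were higher against the control of the other time, against the sum of both controls and with at least 100 reads, beside 6.64%, 5.67% and 3.02% of all genes. A 3-fold threshold left 2 higher and 5 lower at 24 h and 3 lower at 48 h, against 2.64%, 1.63% and 1.94% of all genes. A 1.5-fold threshold gave 14 lower at each time and 5 higher at 48 h, against 14.2%, 14.2% and 14.0% of all genes. Library totals gave 4 genes lower at 48 h, against 3.21%. The median log2 fold of the hepatocyte isoforms with library totals was -1.03 at 24 h and -0.79 at 48 h, and it was -1.05 at 24 h scaled to the hepatocyte markers. That of the isoforms of other cells at 48 h was 2.19 with at least 100 reads, which leaves Pkm alone. The odds ratio of Pfkfb1 over Pfkfb3 was 0.397 at 24 h and 0.280 at 48 h against the other control. The cause of these shifts was not tested. None of the called folds of the 34 genes lay on the other side of 1 under the other scalings or controls. Folds that were not called did so for some genes, among them Hk2 at 24 h (1.43) and Pfkfb3 at 48 h (1.74) against the other control. With TMM all 68 folds stayed within their counting intervals, against 31 with library totals, 46 with the other control, 62 with the sum of both controls and 52 scaled to hepatocyte markers. The sums over shared 3′ ends, the scaling to hepatocyte markers and all alternatives for the further pathway genes were chosen after seeing the data. No paired analysis was possible because the pools compared at each time are 1 against 1, and a fit over both times blocked by time was not run. Depth limits the genes under about 20 reads, Hk1, Hk2, Hk3, Pfkp, Eno3 and Ldhb.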
